A study of Mus musculus with 12 samples.

Results

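The 810 regions described here were peaks of H3K4me3 in Kmt2d mutant mouse melanoma cells at which Kmt2d wild-type (WT) cells had no H3K4me3 peak. They were taken from the 13302 autosomal peaks of the mutant H3K4me3 list, and a peak was kept when it shared not even 1 bp with a peak of the WT H3K4me3 list. They made up 6.09% of the autosomal mutant H3K4me3 peaks. The regions were thus chosen by the H3K4me3 lists themselves, so their lack of WT H3K4me3 and their H3K4me3 scores and widths are descriptions of the choice. The series as a whole holds 173601 peaks in 10 lists.

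Chromatin immunoprecipitation and sequencing mapped 5 histone marks in cells of each genotype, with 1 library per genotype and mark. The mutant cells came from iBIP mice with both Kmt2d copies conditional (iBIP;KMT2DL/L), and the WT cells from iBIP mice with intact Kmt2d (iBIP;KMT2D+/+). Both groups shared the remaining engineered alleles of the iBIP model, on a mixed FVB and B6 background. These were the melanocyte-specific, tamoxifen-inducible Cre Tyr-CreERT2, the doxycycline-controlled activator Rosa26-rtta with the oncogene TetO-BRAFV600E, and the conditional tumour suppressors PTENL/L and INK/ARFL/L. Tumours on the ears of both groups followed doxycycline and topical 4-OHT at 1 uM, and cells were then cultured. The file names carry 1 cell identifier per genotype, so the genotype and the single culture cannot be told apart, and no comparison has a replicate check. Loss of Kmt2d could not be checked from peak lists, and read depth is unknown. The lists held 5358 to 25869 autosomal peaks each. Where a list has no peak, the mark may still be present below the authors' threshold.

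H3K4me3 is the modification of nucleosomes at the start sites of active and poised genes, placed mainly by the SET1 and MLL1/2 enzymes. KMT2D, also called MLL4, is a related methyltransferase known for H3K4me1 at enhancers. H3K27ac accompanies active promoters and enhancers, H3K79me2 is laid down by DOT1L over the first part of transcribed genes, and H3K27me3 is the Polycomb mark of silenced regions. H3K4me3 together with H3K27me3 is the bivalent state found at many developmental promoters.

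Most mutant-only H3K4me3 peaks were weak and narrow. Their MACS score, the authors' own value, is read here as 10 times the −log10 of the caller's p-value, as MACS usually writes it, although no header states this. It ran from 90.07 to 1413, with a median of 137.5. The mutant H3K4me3 peaks that overlapped a WT peak, 12492 in number and called shared below, had a median score of 803.5. The median width was 1076 bp for the mutant-only peaks, and 2230 bp for the shared peaks. The widest mutant-only peak spanned 10090 bp. When all autosomal mutant H3K4me3 peaks were put into 5 equal groups by score, 709 of the 810 mutant-only peaks (87.5%) fell in the lowest group, which ended at a score of 258.1. A further 88 were in the second group, 9 in the third, 4 in the fourth, and no mutant-only peak was in the strongest. Peaks present in the WT list alone were alike in strength: the 1630 autosomal WT-only H3K4me3 peaks, 11.4% of the WT list, had a median score of 138.9 and a median width of 961 bp.

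**Figure D1:**
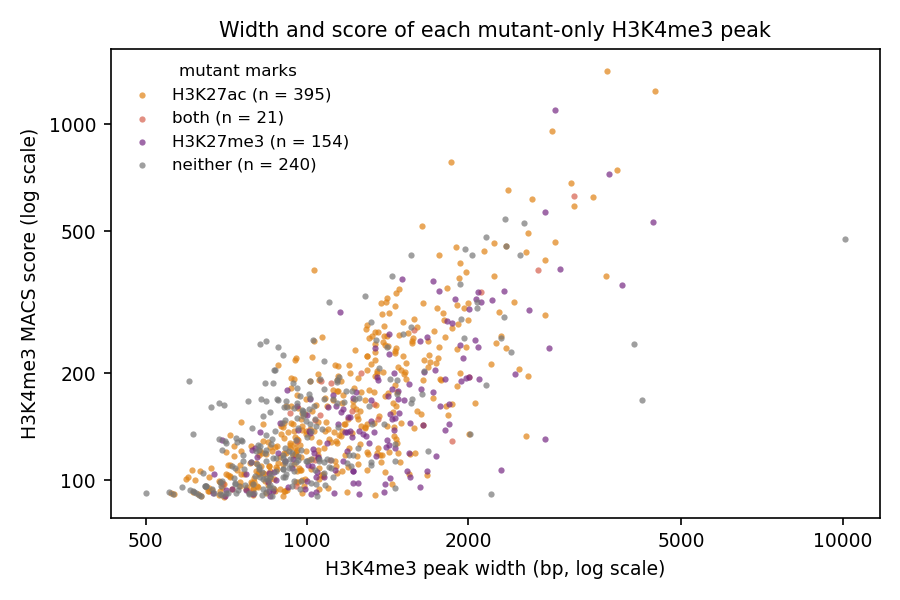
Each point is 1 of the 810 mutant-only H3K4me3 peaks, with its width in bp on the horizontal axis and its MACS score on the vertical axis, both on log scales, coloured by the mutant H3K27ac and H3K27me3 that overlap it. Most points lie near the lower end of both axes (medians 1076 bp and 137.5), and the peak of 10090 bp, with neither mark, stands apart to the right.

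The 10 mutant-only peaks with the highest scores were mostly acetylated in the mutant. The strongest lay on chromosome 3 from 9942252 to 9945879 (mm9, score 1413), where H3K27ac covered 2951 bp in the mutant and 2605 bp in WT; its nearest WT H3K4me3 peak was 65919 bp away. The second, on chromosome 1 from 173488830 to 173493288 (score 1239), had mutant H3K27ac over 4057 of its 4459 bp, and no WT list had a peak there. WT peaks of every mark were likewise missing at the peak on chromosome 7 from 148154656 to 148157518, which had 2639 bp of mutant H3K27ac. The same was true on chromosome 2 from 154178300 to 154180159, fully covered by mutant H3K27ac and for 683 bp by mutant H3K79me2. It also held on chromosome 12 from 71319436 to 71323223, with 1626 bp of mutant H3K27ac, 1468 bp from a WT H3K4me3 peak with a score of 109.3. These 4 regions thus had H3K4me3 and H3K27ac in the mutant and no peak in any of the 5 WT lists.

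Of the other 5 strong peaks, 3 had H3K27ac in both genotypes. On chromosome 10 from 7551823 to 7554928, H3K27ac covered 3106 bp in the mutant and 1656 bp in WT. On chromosome 11 from 107289496 to 107291868, it covered the full 2373 bp in both, while H3K79me2 covered 1523 bp in the mutant and 227 bp in WT. On chromosome 13 from 24694402 to 24697558, H3K27ac covered 2094 bp in the mutant and 2871 bp in WT, beside 454 bp of mutant H3K27me3 and 914 bp of WT H3K4me1. The remaining pair were Polycomb regions in both genotypes. On chromosome 12 from 31758337 to 31761242 (score 1096), H3K27me3 covered 1922 bp in the mutant and 2226 bp in WT. On chromosome 11 from 18913681 to 18917342, it covered all 3662 bp in both, and the nearest WT H3K4me3 peak was 489 bp away. Mutant H3K79me2 covered 808 bp of this region, and WT had no H3K79me2 peak there.

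H3K27ac overlapped 416 of the 810 mutant-only peaks in the mutant (51.4%, 95% exact interval 47.9 to 54.9), against 72.1% of all autosomal mutant H3K4me3 peaks. H3K79me2 overlapped 200 of them in the mutant (24.7%, 21.8 to 27.8), against 53.9% of all. H3K27me3 overlapped 175 in the mutant (21.6%, 18.8 to 24.6), against 15.9% of all, and H3K4me1 overlapped 89 (11.0%, 8.92 to 13.3), against 11.0% of all. None of these 4 marks was in the mutant lists at 166 peaks (20.5%, 17.8 to 23.4), against 11.4% of all. Relative to the whole list, the mutant-only peaks thus had less acetylation and less of the mark of transcribed genes, more H3K27me3, and H3K4me1 at the same share. The intervals given throughout cover counting error only; peaks close to each other can share their marks.

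The lower shares of active marks went with the low scores. In the lowest of the 5 score groups, mutant H3K27ac was at 49.9% (46.2 to 53.7) of the 709 mutant-only peaks and at 39.2% (37.1 to 41.4) of the 1952 shared peaks. Mutant H3K79me2 was at 24.1% (21.0 to 27.4) of the mutant-only and at 14.1% (12.6 to 15.8) of the shared peaks of this group. Mutant H3K27me3 went the other way, at 21.3% (18.3 to 24.5) of the mutant-only and 29.7% (27.7 to 31.8) of the shared peaks. In this group the mutant-only peaks therefore had more mutant H3K27ac and H3K79me2 and less H3K27me3 than the shared ones. In the second group, with 88 mutant-only peaks and wide intervals, the shares lay closer together. Mutant H3K27ac was there at 58.0% (47.0 to 68.4) of the mutant-only and 52.7% (50.8 to 54.7) of the shared peaks, H3K79me2 at 27.3% of the mutant-only and 26.2% of the shared, and H3K27me3 at 23.9% of the mutant-only and 22.9% of the shared. With 20 score groups in place of 5, chosen after the values were seen, and the shared peaks weighted to the scores of the mutant-only ones, these differences were 10.9, 8.63 and -7.60 percentage points for H3K27ac, H3K79me2 and H3K27me3.

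WT cells carried other marks at most of these places. WT H3K27ac overlapped 386 of the 810 mutant-only peaks (47.7%, 44.2 to 51.2), against 79% of all autosomal mutant H3K4me3 peaks. WT H3K79me2 overlapped 184 (22.7%, 19.9 to 25.8), against 60.3% of all, and WT H3K27me3 162 (20%, 17.3 to 22.9), against 16.2% of all. WT H3K4me1, typical of enhancers and promoter flanks, overlapped 210 (25.9%, 22.9 to 29.1), against 25.5% of all. At 192 of the mutant-only peaks (23.7%, 20.8 to 26.8) no WT list had any peak. For all mutant H3K4me3 peaks, the share with none of the other 4 marks in WT was 6.77%. In the lowest score group, WT H3K27ac was at 47.1% (43.4 to 50.9) of the mutant-only and 47.9% (45.7 to 50.1) of the shared peaks. WT H3K27me3 was at 19.6% (16.7 to 22.7) of the mutant-only and 31.25% (29.2 to 33.4) of the shared peaks, and WT H3K79me2 at 22.8% (19.8 to 26.1) of the mutant-only and 19.7% (18.0 to 21.6) of the shared. WT H3K4me1 was at 26.1% (22.9 to 29.5) of the mutant-only and 18.3% (16.6 to 20.1) of the shared peaks. None of the other 4 marks was in WT at 24.4% (21.3 to 27.7) of the mutant-only and 18.3% (16.6 to 20.1) of the shared peaks. The shared peaks all had WT H3K4me3 by definition. In the second group, which held 88 mutant-only peaks, WT H3K27ac was at 53.4% (42.5 to 64.1) of the mutant-only and 66.5% (64.7 to 68.3) of the shared peaks.

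**Figure D2:**
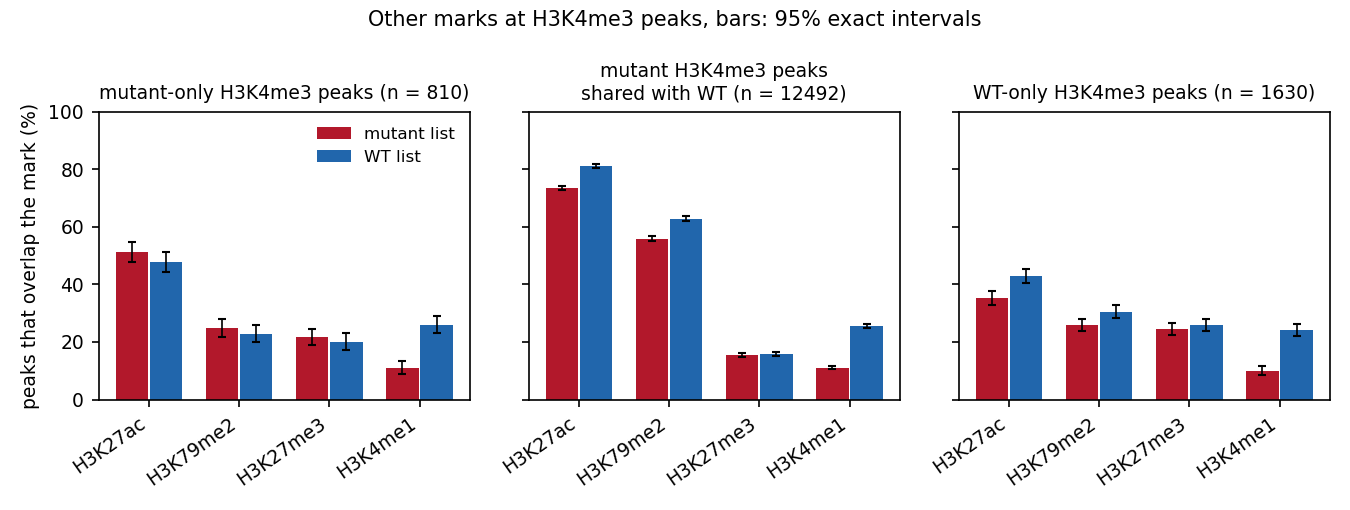
The vertical axis gives the percentage of H3K4me3 peaks that overlap a peak of each mark by at least 1 bp, with mutant lists in red and WT lists in blue, for mutant-only, shared and WT-only H3K4me3 peaks; bars show 95% exact binomial intervals, which cover counting error only. At the mutant-only peaks the mutant and WT shares lie close together for H3K27ac (51.4% and 47.7%), H3K79me2 (24.7% and 22.7%) and H3K27me3 (21.6% and 20%) and apart for H3K4me1 (11.0% and 25.9%).

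Place by place, most mutant-only peaks with mutant H3K27ac, H3K79me2 or H3K27me3 had the same mark in WT. Of the mutant-only peaks with mutant H3K27ac, 351 of 416 (84.4%, 80.5 to 87.7) also had WT H3K27ac; H3K27ac in both genotypes was at 43.3% of the mutant-only peaks, against 69.9% of all autosomal mutant H3K4me3 peaks. Of those with mutant H3K27me3, 154 of 175 (88.0%, 82.2 to 92.4) also had WT H3K27me3, and of those with mutant H3K79me2, 167 of 200 (83.5%, 77.6 to 88.4) also had WT H3K79me2. The shared H3K4me3 peaks had 97.6% (97.3 to 97.9) for H3K27ac, 88.7% (87.2 to 90.1) for H3K27me3 and 96.3% (95.9 to 96.8) for H3K79me2. The WT counterpart was thus missing more often at mutant-only peaks for both active marks, and about as often for H3K27me3. Mutant H3K4me1 was matched by WT H3K4me1 at 68 of 89 mutant-only peaks (76.4%, 66.2 to 84.8), but WT H3K4me1 by mutant H3K4me1 at only 68 of 210 (32.4%, 26.1 to 39.2), against 32.0% of all peaks with WT H3K4me1.

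Sorted by H3K27ac and H3K27me3, 685 of the 810 mutant-only peaks (84.6%, 81.9 to 87.0) were in the same state in both genotypes, against 85.6% of all autosomal mutant H3K4me3 peaks. H3K27ac without H3K27me3 in both was found at 337 peaks (41.6%, against 65.3% of all). H3K27me3 without H3K27ac in both was at 146 (18.0%, against 9.31% of all), and neither mark in either at 198 (24.4%, against 8.15% of all). The most frequent difference was H3K27ac in the mutant where WT had neither mark, at 57 peaks (7.04%, against 1.57% of all). The reverse, neither mark in the mutant and H3K27ac in WT, was found at 35 (4.32%, against 7.05% of all). H3K27ac alone in the mutant with H3K27me3 alone in WT was at 0 mutant-only peaks and at 4 of all 13302, and H3K27me3 alone in the mutant with H3K27ac alone in WT at 0 and at 34 of all. Both classes are too rare over the whole list for these 0 counts to say anything about the mutant-only peaks.

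**Figure D3:**
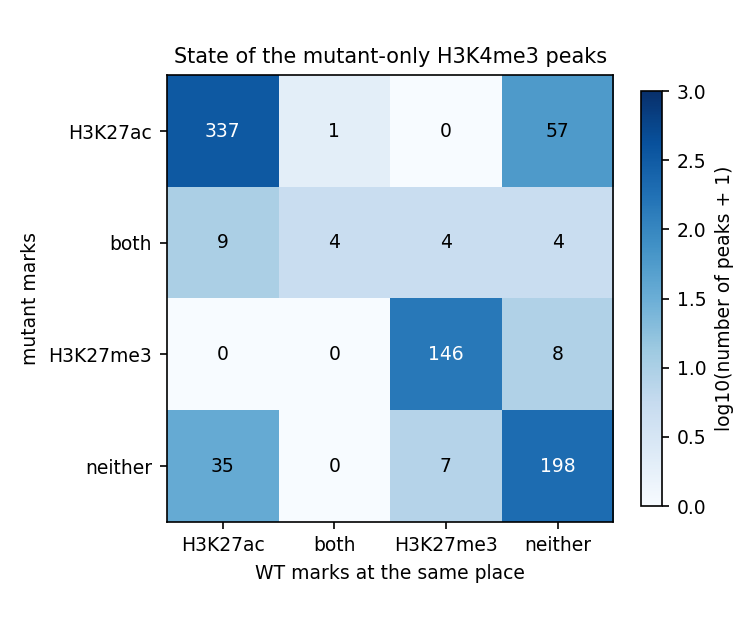
Rows give the mutant marks and columns the WT marks at the 810 mutant-only H3K4me3 peaks, sorted into H3K27ac alone, both, H3K27me3 alone or neither; the numbers are counts of peaks and the shading is log10(count + 1). The counts gather on the diagonal (337, 4, 146 and 198), and the largest count off it is the 57 peaks with mutant H3K27ac and neither mark in WT.

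H3K27ac was in the mutant and not in the WT list at 65 mutant-only H3K4me3 peaks (8.02%, 6.25 to 10.1), against 2.15% of all autosomal mutant H3K4me3 peaks. It was in WT and not in the mutant at 35 (4.32%, 3.03 to 5.96), against 9.04% of all. The balance between these classes was thus 65 to 35 at the mutant-only peaks and 286 to 1203 over all autosomal mutant H3K4me3 peaks. At the WT-only H3K4me3 peaks it was 26 to 150. The mutant-only and the WT-only peaks thus each leaned to the genotype whose H3K4me3 list they were chosen from. For H3K79me2 the same classes numbered 33 (4.07%) and 17 (2.10%) at the mutant-only peaks, against 2.17% and 8.55% of all. For H3K27me3 they numbered 21 (2.59%) and 8 (0.988%) at the mutant-only peaks, against 1.80% and 2.11% of all. At the WT-only peaks the same classes numbered 9 and 86 for H3K79me2, and 32 and 53 for H3K27me3.

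The 65 places with H3K27ac in the mutant alone had weaker acetylation than the others. Mutant H3K27ac peaks there had a median score of 232.3 and a median width of 1824 bp, and those at the mutant-only H3K4me3 peaks with H3K27ac in both genotypes 715.4 and 3265 bp. Mutant H3K27ac peaks at H3K4me3 sites were put into 4 equal groups by score. In the strongest, 173 of 179 mutant-only H3K4me3 peaks (96.6%, 92.8 to 98.8) also had WT H3K27ac, as did 99.9% of the shared ones. In the weakest it was 47 of 75 (62.7%, 50.7 to 73.6), and 91.3% (90.02 to 92.5) of the shared ones. The lower share at mutant-only peaks was present in all 4 groups. A WT H3K27ac peak lay within 10000 bp of 33 of the 65 places (50.8%, 38.1 to 63.4), at a median distance of 6875 bp over all 65. This distance was not computed for other H3K4me3 peaks.

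**Figure D4:**
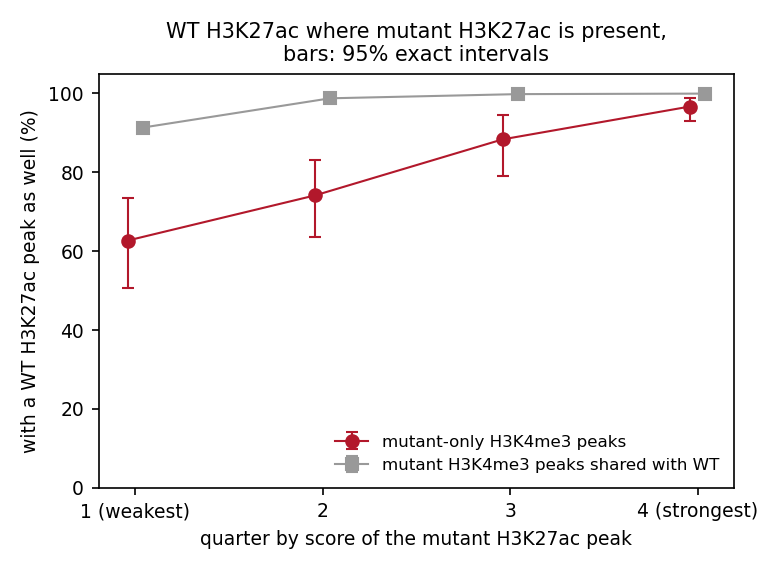
Among H3K4me3 peaks that overlap mutant H3K27ac, the vertical axis gives the percentage that also overlap WT H3K27ac, for 4 equal groups by the score of the mutant H3K27ac peak, with mutant-only peaks in red, shared peaks in grey and 95% exact intervals. The mutant-only peaks go from 62.7% in the weakest to 96.6% in the strongest group and lie below the shared peaks in each.

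Mutant H3K27ac and H3K79me2 together, a pattern found at active and transcribed start sites, were at 129 mutant-only peaks (15.9%, 13.5 to 18.6), against 48.5% of all autosomal mutant H3K4me3 peaks. Mutant H3K4me1 joined them at 48 mutant-only peaks (5.93%, 4.40 to 7.78), against 9.17% of all. At like score the order was reversed. In the lowest score group the pair was at 15.2% (12.7 to 18.1) of the mutant-only and 9.78% (8.50 to 11.2) of the shared peaks. The pair with mutant H3K4me1 was there at 6.21% (4.55 to 8.24) of the mutant-only and 3.23% (2.49 to 4.11) of the shared peaks. Whether these places are start sites was not tested. At 6 of the 129 peaks no WT list had a peak. The strongest of them is the region on chromosome 2 from 154178300 given above. The next lay on chromosome 2 from 125860306 to 125863457 (score 588.0), with 1167 bp of mutant H3K27ac and 1248 bp of mutant H3K79me2, at 109926 bp from a WT H3K4me3 peak. Another on chromosome 2, from 27950282 to 27952392, had 1462 bp of mutant H3K27ac, 1169 bp of H3K79me2 and 269 bp of H3K27me3. On chromosome 15 from 101123680 to 101125315, mutant H3K27ac covered 935 bp and H3K79me2 979 bp. The last pair were neighbours on chromosome 18, from 61823093 to 61824146 and from 61824174 to 61825094, with mutant H3K79me2 over 1054 and 10 bp, so that the 6 peaks stand for 5 places.

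Of the mutant-only peaks with WT H3K27ac, the 4 strongest are the regions on chromosomes 3, 10, 11 and 13 above, and the next lay on chromosome 1 from 133083444 to 133086863 (score 625.2). H3K27ac covered its full 3420 bp in both genotypes, and H3K79me2 1302 bp in the mutant and 2054 bp in WT. Over the peaks that had each mark, the median share of the peak's length under it was 100% for mutant H3K27ac, H3K79me2 and H3K27me3 and for the same WT marks. At the shared H3K4me3 peaks these medians were 84.5%, 49.9% and 87.9% for the mutant lists and 81.4%, 56.1% and 75.6% for the WT lists. A mutant-only H3K4me3 peak with one of these marks thus typically lay wholly inside it.

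The peaks of other marks that held mutant-only H3K4me3 peaks were long and strong within their lists. The 412 mutant H3K27ac peaks concerned had a median score of 565.0 and a median width of 2870 bp, and those at shared H3K4me3 peaks 399.7 and 2146 bp. The 166 mutant H3K27me3 peaks had a median width of 6152 bp, a median −log10 q of 6.29 and a median fold enrichment of 4.67, the authors' own values. Those at shared peaks had medians of 3070 bp, 5.24 and 4.28. The 180 mutant H3K79me2 peaks had a median width of 5140 bp, and those at shared peaks 3119 bp. In the WT lists, the H3K27ac peaks at mutant-only sites were 2642 bp wide at the median, against 1927 bp at shared sites, and the H3K27me3 peaks 4835 bp, against 2407 bp. WT H3K79me2 peaks were wider at mutant-only sites, at 6431 bp against 3539 bp, but not stronger, with a median −log10 q of 6.84 against 7.04. A longer peak overlaps a given region more readily, and the widths were not corrected for this.

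WT H3K4me1 was most frequent at the acetylated mutant-only peaks. Mutant H3K27ac without mutant H3K27me3 was at 395 mutant-only peaks (48.8%, 45.3 to 52.3), against 67.8% of all. In the lowest score group this state was at 47.5% (43.8 to 51.3) of the mutant-only and 37.7% (35.5 to 39.8) of the shared peaks. Of these 395, 19.2% (15.5 to 23.5) had mutant H3K4me1 and 42.3% (37.4 to 47.3) WT H3K4me1. At shared H3K4me3 peaks in this state the shares were 14.8% (14.1 to 15.6) for mutant and 30.8% (29.8 to 31.8) for WT H3K4me1. WT H3K4me1 with WT H3K27ac, the pair found at active enhancers, was at 169 of the 810 mutant-only peaks (20.9%, 18.1 to 23.8), against 23.1% of all autosomal mutant H3K4me3 peaks. In the lowest score group it was at 20.6% (17.7 to 23.8) of the mutant-only and 13.5% (12.0 to 15.1) of the shared peaks. H3K4me1 was in the mutant and not in WT at 21 mutant-only peaks (2.59%), against 2.87% of all, and in WT and not in the mutant at 142 (17.5%, 15.0 to 20.3), against 17.4% of all. The mutant H3K4me1 list held 5358 autosomal peaks and the WT list 15974, and the part of this difference in these counts was not tested.

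H3K27me3 without H3K27ac marked 154 mutant-only peaks in the mutant (19.0%, 16.4 to 21.9), against 11.5% of all. In the lowest score group this state was at 18.9% (16.1 to 22.0) of the mutant-only and 28.1% (26.1 to 30.2) of the shared peaks. WT had H3K27me3 at 146 of the 154 (94.8%, 90.02 to 97.7), against 93.0% of all peaks in this state. H3K79me2 was at 1 of the 154 in the mutant (0.649%, 0.0164 to 3.56), against 5.02% of all peaks in this state. Their median width was 1317 bp and their median distance to WT H3K4me3 27566 bp, the longest of the 4 states. After the regions on chromosomes 12 and 11 above, the strongest lay on chromosome 12 from 81618955 to 81621739 (score 567.3) and on chromosome 13 from 72764831 to 72769252 (score 529.9). Both were covered by H3K27me3 over their full lengths of 2785 and 4422 bp in each genotype. In these places the H3K4me3 peak was in the mutant list alone within a Polycomb region present in both.

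H3K27ac and H3K27me3 together were rare, at 21 mutant-only peaks (2.59%, 1.61 to 3.94), against 4.32% of all. In the lowest score group they were at 2.40% (1.40 to 3.81) of the mutant-only and 1.59% (1.08 to 2.25) of the shared peaks. The strongest of the 21, on chromosome 13 from 24694402, is described above. The next, on chromosome 14 from 70253733 to 70256436 (score 388.2), had H3K27ac over all 2704 bp in both genotypes, 1034 bp of mutant H3K27me3 and 2704 bp of WT H3K4me1. On chromosome 6 from 146743968 to 146745552, mutant H3K27ac covered 1400 bp, and H3K27me3 200 bp in the mutant and 240 bp in WT.

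Neither mark was at 240 mutant-only peaks in the mutant (29.6%, 26.5 to 32.9), against 16.4% of all. In the lowest score group this state was at 31.2% (27.8 to 34.7) of the mutant-only and 32.6% (30.6 to 34.8) of the shared peaks. The median score of the 240 was 124.0, the lowest of the 4 states. Mutant H3K79me2 was at 70 of the 240 (29.2%), against 29.6% of all peaks in this state. The strongest lay on chromosome 14 from 68396370 to 68398713 (score 540.9), where no list other than mutant H3K4me3 had a peak. WT H3K4me1 covered 1117 bp of the next, on chromosome 1 from 74639938 to 74642481, and WT H3K27me3 1376 bp of that on chromosome 2 from 169458047 to 169460201. The fourth, on chromosome 7 from 38967470 to 38977559 (score 477.3), was also the widest mutant-only peak, and its 10090 bp carried no other peak in any list.

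At 133 mutant-only peaks (16.4%, 13.9 to 19.2) none of the other 4 marks had a peak in either genotype, against 5.28% of all. In the lowest score group this was 17.9% (15.2 to 20.9) of the mutant-only and 15.5% (13.9 to 17.2) of the shared peaks. The peaks concerned were narrow, with a median width of 902 bp, and a median score of 121.5. Among the 5 widest mutant-only peaks were 3 of them, that of chromosome 7 and those on chromosome 13 from 120275877 to 120280088 (score 167.7) and chromosome 8 from 111470565 to 111474648 (score 241.8). The other two of the 5 are the acetylated region on chromosome 1 from 173488830 and the Polycomb region on chromosome 13 from 72764831. Split by their own score into 5 groups of 162, the mutant-only peaks had no other mark in either genotype in 22.8% (16.6 to 30.1) of the lowest group and in 8.02% (4.34 to 13.3) of the highest. Mutant H3K27ac was at 45.1% (37.2 to 53.1) of the lowest and 61.7% (53.8 to 69.2) of the highest group.

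Distance to WT H3K4me3 varied widely, from 11 bp to 4275809 bp, with a median of 12367 bp and quartiles of 2246 and 45733 bp. A WT H3K4me3 peak lay within 1000 bp of 138 mutant-only peaks (17.0%, 14.5 to 19.8), within 10000 bp of 372 (45.9%, 42.5 to 49.4), and beyond 100000 bp from 96. The WT-only peaks were slightly farther from mutant H3K4me3, with a median of 17204 bp, 12.6% (11.0 to 14.3) within 1000 bp and 40.1% (37.7 to 42.5) within 10000 bp. For 737 of the 810 mutant-only peaks (91.0%, 88.8 to 92.9) the nearest WT H3K4me3 peak overlapped another mutant H3K4me3 peak. In the autosomal WT list as a whole, 1630 of 14327 peaks (11.4%) overlapped no mutant H3K4me3 peak. A WT neighbour that the mutant list held too was thus about as common as in the whole WT list. Another mutant H3K4me3 peak lay within 1000 bp of 204 mutant-only peaks (25.2%, 22.2 to 28.3). The median distance to the next mutant H3K4me3 peak was 10072 bp for the mutant-only peaks. For the shared peaks it was 25349 bp, with a 10th percentile of 2361 bp. In 144 of the 204 (70.6%, 63.8 to 76.7) that neighbour was a shared peak, while shared peaks made up 12492 of the 13302 autosomal mutant peaks.

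The marks varied with this distance. Mutant H3K79me2 was at 50.7% (42.1 to 59.3) of the mutant-only peaks within 1000 bp of WT H3K4me3, at 14.4% (10.3 to 19.4) of those 10 to 50 kb away, and at 5.21% (1.71 to 11.7) beyond 100000 bp. WT H3K79me2 had nearly the same shares, at 50% (41.4 to 58.6), 12.8% (8.92 to 17.6) and 3.12% (0.649 to 8.86). Mutant H3K27ac was at 42.8% (34.4 to 51.5) of the nearest class, at 65.3% (57.1 to 72.9) of the peaks 1 to 5 kb away and at 21.9% (14.1 to 31.5) beyond 100000 bp. Mutant H3K27me3 was at 15.2% (9.67 to 22.3) of the nearest class and at 38.5% (28.8 to 49.0) of the farthest, and WT H3K27me3 at 13.0% (7.92 to 19.8) and 42.7% (32.7 to 53.2). H3K79me2 was thus most frequent at the mutant-only peaks closest to WT H3K4me3, and H3K27me3 at the most remote. Mutant H3K27ac was highest at 1 to 5 kb, and still at 57.6% (51.2 to 63.8) of the peaks 10 to 50 kb away. WT H3K4me1 was highest at 1 to 5 kb, with 41.3% (33.4 to 49.7), and lowest beyond 100000 bp, with 7.29% (2.98 to 14.4). The median scores differed little between these classes, from 127.5 to 146.4.

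**Figure D5:**
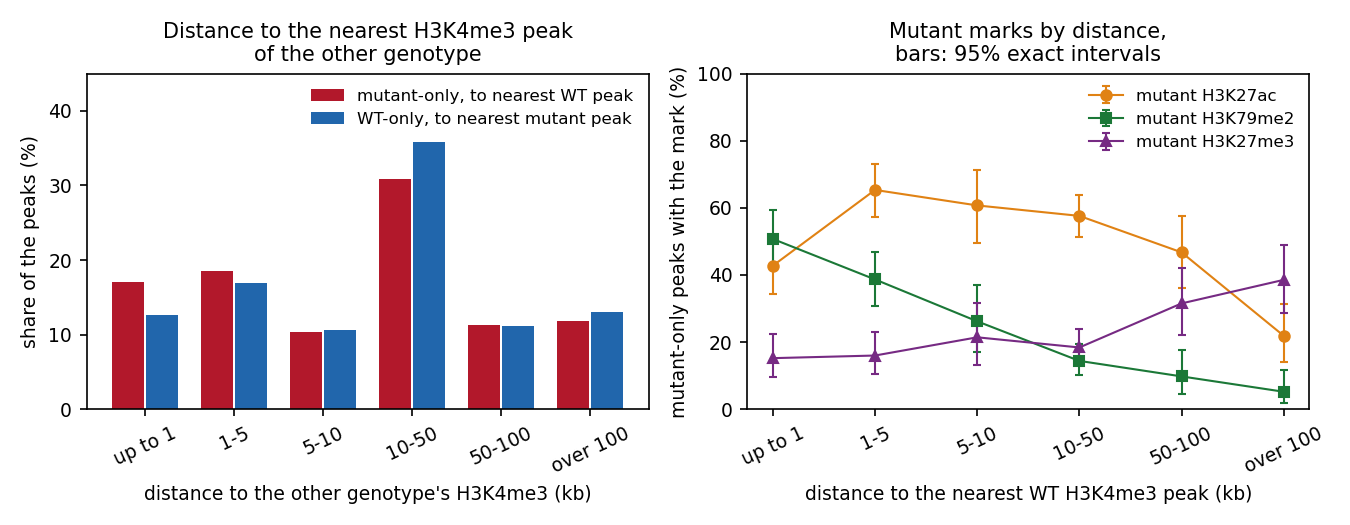
Left, the percentage of mutant-only H3K4me3 peaks (red, to the nearest WT peak) and WT-only peaks (blue, to the nearest mutant peak) in 6 distance classes in kb. Right, the percentage of mutant-only peaks with mutant H3K27ac, H3K79me2 or H3K27me3 in each class, with 95% exact intervals: H3K79me2 goes down from 50.7% to 5.21% with distance and H3K27me3 is highest, at 38.5%, in the farthest class.

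The farthest mutant-only peak from WT H3K4me3 was on chromosome 14 from 94289213 to 94290457 (score 123.3), at 4275809 bp, with no other peak in any list. The second, on chromosome 12 from 50483625 to 50484637, was covered by H3K27me3 over all 1013 bp in both genotypes and lay at 1264457 bp. No other mark had a peak at the remaining 3, which lay on chromosome 3 from 46251265 to 46252199 (1065237 bp away), on chromosome 18 from 51277419 to 51279059 (988561 bp), and on chromosome 7 from 78556605 to 78557469 (890944 bp). At the other end, the mutant-only peaks nearest to WT H3K4me3 lay on chromosome 17 from 75579058 to 75579973 (11 bp away), on chromosome 4 from 43974193 to 43975764 (15 bp), chromosome 13 from 21807825 to 21808485 (25 bp), chromosome 4 from 19503284 to 19504092 (25 bp) and chromosome 13 from 99125116 to 99126141 (32 bp). Just outside the choice were mutant peaks that overlapped WT H3K4me3 by 6, 26, 52, 66 and 86 bp, with scores of 92.28 to 115.2. The one with 6 bp, on chromosome 6 from 129184453 to 129185158 (score 99.44), had H3K27ac over all 706 bp in both genotypes. The 5 nearest mutant-only peaks had scores of 122.5 to 246.1, all above those of these 5.

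Acetylation was more frequent at the mutant-only peaks than at the WT-only peaks, the mirror class. H3K27ac of the same genotype was at 51.4% (47.9 to 54.9) of the mutant-only peaks and at 42.9% (40.5 to 45.3) of the WT-only peaks. H3K27ac of the other genotype was at 47.7% (44.2 to 51.2) of the mutant-only peaks and at 35.3% (33.0 to 37.7) of the WT-only peaks. H3K27me3 of the same genotype was at 21.6% (18.8 to 24.6) of the mutant-only and 25.8% (23.7 to 28.0) of the WT-only peaks. For H3K79me2 of the same genotype the shares were 24.7% (21.8 to 27.8) of the mutant-only and 30.5% (28.3 to 32.8) of the WT-only peaks. The intervals of the H3K27me3 shares overlap, and those of the H3K27ac and H3K79me2 shares do not. The lists differ in depth to an unknown extent, whose part in these differences was not tested.

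Mutant-only peaks were found on every autosome. Their share of the mutant H3K4me3 peaks ran from 4.35% (3.23 to 5.71, 49 of 1127) on chromosome 11 to 8.13% (5.87 to 10.9, 40 of 492) on chromosome 19. The share of WT-only peaks in the WT list was 9.63% on chromosome 11 and, lowest of all autosomes, 7.94% on chromosome 19. In windows of 500 kb, 477 of the 810 peaks were the only one of their window, and the fullest window held 6.

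The window with most mutant-only peaks was on chromosome 10, where 6 lay between 59791549 and 59836151. All 6 had H3K27ac in both genotypes, and 5 had WT H3K4me1. The strongest of them, from 59831452 to 59835066 (score 374.1), had 3615 bp of H3K27ac in each genotype, and H3K4me1 over 1123 bp in the mutant and 3590 bp in WT. The nearest WT H3K4me3 peak to all 6 was the same one, with a score of 3100, and the nearest of the 6 lay 289 bp from it. In 4 other windows there were 5 each. On chromosome 3 between 95096669 and 95457015, 4 had mutant H3K27ac, 3 had WT H3K27ac and 2 had no WT peak. On chromosome 4 between 43949526 and 43986240, 4 had mutant H3K27ac and all 5 WT H3K27ac. Of these 5, 3 lay from 43949526 to 43953770 with gaps of up to 225 bp, and the one from 43974193 lay 15 bp from a WT peak. On chromosome 7 between 128181093 and 128192041, all 5 had H3K79me2 in both genotypes, while mutant H3K27ac was at 1 and WT H3K27ac at 2. On chromosome 13 between 21806958 and 21875954, none of the 5 had H3K27ac, H3K27me3, H3K79me2 or a WT peak of any mark. The 5 fullest windows thus differed in their marks.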

How the data were processed

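The values start from 10 peak lists that the authors deposited, each called in 1 library. The submitters' processing notes name the build mm9 and the tools Bowtie, MACS, MACS2 and deepTools; versions and roles are not given in the sources used here. The H3K4me1, H3K27ac and H3K4me3 lists carry a deposited MACS score per peak. The H3K79me2 and H3K27me3 lists are broad peaks, for which the authors deposited a score, fold enrichment (a ratio) and the −log10 of p and q. The 2 input libraries were not used here. Scores and folds describe or rank peaks within a list.

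Groups come from the sample titles. Peaks overlapped when they shared at least 1 bp; distances are the bases between peak ends, and coordinates count from 1. Shares carry 95% Clopper-Pearson intervals. With 1 library per genotype and mark no test was made. The 4 groups by H3K27ac score were set on all mutant H3K27ac peaks at autosomal mutant H3K4me3 peaks. Regions were named by a rule: the 10 highest scores, the 5 farthest from WT H3K4me3, the 5 widest, the 4 highest scores per mutant state, the 5 highest scores among peaks with mutant H3K27ac and H3K79me2 and no WT peak, with WT H3K27me3 replaced by mutant H3K27ac (none), and with WT H3K27ac, the 5 on either side of the overlap limit, and the 3 fullest windows, to which the 2 windows tied with the last were added after their values were seen. The sixth peak with mutant H3K27ac and H3K79me2 and no WT peak was named after its values were seen. The members, classes and rule were chosen with earlier results of these data known. No gene annotation of mm9 was used here, so regions carry no gene names or sequences. Overlap code was tested on simulated lists. The scripts ran in Python 3.11.15 with scipy 1.17.1, numpy 2.4.6 and, for figures, matplotlib 3.10.9.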

Additional observations from a re-analysis of the deposited data

How the results depend on the processing

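No paired analysis was possible because each genotype and mark has 1 library, and no library could be left out. Of 77 values recomputed under 9 other settings, 55 stayed within the interval of the reported value (counts within 1.5 times) and 22 did not. Requiring an H3K4me3 score of at least 200 left 187 mutant-only peaks in place of 810. Of these, 63.1% had mutant H3K27ac, 29.4% mutant H3K79me2, 55.1% WT H3K27ac, 19.3% no WT peak, and 35.8% lay within 10000 bp of WT H3K4me3. With peaks counted as shared only where WT H3K4me3 covered at least 50% of them, 965 were mutant-only, with no WT peak at 19.9% and WT H3K4me3 within 10000 bp at 54.6%. Every peak added by this setting overlaps WT H3K4me3, so both shifts follow from the setting itself. Without the peaks within 1000 bp of WT H3K4me3, mutant H3K79me2 was at 19.3%, WT H3K79me2 at 17.1% and WT H3K4me3 within 10000 bp at 34.8%. Joining H3K4me3 peaks within 1000 bp gave 18.3%, 17.0% and 33.3% for these. The 34.8% follows from the removal of the peaks within 1000 bp itself. When a mark had to cover 50% of the peak, mutant H3K79me2 was at 19.3%, WT H3K79me2 at 17.7%, and no WT peak at 27.8%. When marks within 1000 bp counted, mutant H3K27ac was at 57.3%, mutant H3K79me2 at 28.5%, WT H3K27ac at 54.3%, WT H3K79me2 at 27.8% and no WT mark at 16.0%. Both H3K27me3 shares stayed within their intervals in all 9 settings. Stricter lists (−log10 q from 3 upwards, MACS score from 100 upwards), lists of 13691 strongest H3K4me3 peaks each and the addition of chromosomes X and Y moved no share out of its interval. The q limit removed no H3K79me2 peak, as the lowest values there were 3.23 in the mutant and 3.33 in WT. The mutant-only peaks numbered 729 with stricter lists and 846 with X and Y. They numbered 1043 with lists of 13691, the full length of the mutant list, so that only the WT list was shortened. Depth is unknown and limits every statement on a missing peak; its part was not tested.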

Other observations

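Chromosome X was not part of the autosomal set. There, 36 of 385 mutant H3K4me3 peaks (9.35%, 95% exact interval 6.64 to 12.7) overlapped no WT H3K4me3 peak. They had a median score of 123.8 and a median width of 854 bp. H3K27ac overlapped 9 of them in the mutant and 5 in WT, and H3K27me3 overlapped 4 in the mutant and 6 in WT. Marks were not counted over all 385 peaks of this chromosome, so whether these counts differ from its other peaks is unknown.

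Some mutant-only H3K4me3 peaks lay together in 1 long peak of another mark. A mutant H3K27me3 peak of 141057 bp on chromosome 6, from 52093631 to 52234687, held 4 of them, all of which had WT H3K27me3 as well. A mutant H3K79me2 peak on chromosome 7 from 128177339 to 128200367 held 5, which also lay in 1 WT H3K79me2 peak from 128176774 to 128195927. In all, 35 mutant-only peaks shared a mutant H3K27ac peak with another, 39 a mutant H3K79me2 peak and 18 a mutant H3K27me3 peak. On chromosome 9, between 3006879 and 3038587, 4 lay together with no WT peak of any mark and neither mutant H3K27ac nor H3K27me3. Their 500 kb window held 13 mutant and 9 WT H3K4me3 peaks. No region of the lists was left out here for repeated sequence. These groups were chosen after their values were seen.

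The 192 mutant-only peaks with no WT peak were in part close to WT marks. A WT peak of H3K4me1, H3K27ac, H3K79me2 or H3K27me3 lay within 1000 bp of 49 and within 10000 bp of 99 of them (51.6%, 44.3 to 58.8). Of the 39 that had mutant H3K27ac, 17 had such a WT peak within 1000 bp and 27 within 10000 bp. These distances were not computed for other H3K4me3 peaks, so whether the mutant-only ones are closer than usual was not tested.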
